A study of Mus musculus and Rattus norvegicus with 60 samples.

Results

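The proliferative zone (PZ) of the mouse proximal tibia was compared between 4 weeks and 1 week of age over all genes measured. The members are the 10 libraries that the labels place in these groups, of 59 libraries with values and 60 samples listed in the series. Both groups were C57BL/6 mice, of which only males were taken at these ages, with free access to food. The tested animals were 4 weeks old (5 mice) and the younger animals were 1 week old (5 mice), and each mouse gave 1 of these 10 libraries, so the replicate was the animal. The study set growth plates of long and short bones of mouse and rat side by side to ask why bones reach different lengths. The zone was cut from frozen sections by laser capture microdissection, and the little RNA that each animal yielded was amplified before it was sequenced. The hypertrophic zone (HZ) of the same bone was taken in the same way (5 libraries at 4 weeks and 5 at 1 week), as was the tibia PZ of male Sprague Dawley rats at these ages (5 libraries each), and both serve here for comparison. Whether PZ and HZ libraries came from the same mice is not stated in the sources used here, and the main fit treats them as independent. Because the zone was cut by its appearance, a captured piece can hold cells of the zones on either side or of the marrow, and the levels of their markers are given beside the results.

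The growth plate is the cartilage that lengthens a bone. Chondrocytes of the PZ are flat cells stacked in columns, which divide along the axis of the bone and lay down type II collagen and aggrecan. They then stop dividing, swell into the HZ, make type X collagen and let their matrix mineralize. With age the growth plate slows and thins, a process called growth plate senescence, in which the rate of division in the columns declines.

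Values are normalized counts, that is reads per gene scaled by the authors with Relative Log Expression (RLE), and a fold change is the difference of log2(normalized count + 1), 4 weeks minus 1 week. A gene was called at a limma adjusted p under 0.05 with a change above 2-fold. The SE and p of a gene rest on its spread within all 6 mouse groups (29 libraries), HZ and phalanx included. A gene can thus fail the test although its 2 PZ groups lie apart. Reads counted in genes ranged from 19711370 to 41856130 (median 38856868) in the 4-week libraries and from 24056007 to 29625595 (median 27485561) in the 1-week libraries. The ribosomal RNA precursor gene Rn45s took 31.0% to 37.2% of reads at 4 weeks and 44.7% to 60.2% at 1 week, which left 13597459 to 27649840 reads (median 25619330) in other genes at 4 weeks and 9958099 to 15190828 (median 12363605) at 1 week, so the 4-week libraries were the deeper ones by their medians, while 4-week replicate 1 had the fewest reads in genes of all 10 libraries. Rn45s was itself among the genes called lower (log2 fold change -1.04 ± 0.28 (SE), adjusted p = 0.0207). In a principal component analysis of the 10 libraries the first component held 34.7% of the variance and separated the 2 ages, and the second held 12.5%. The tissue label was checked against its markers. Col2a1, Acan and Sox9, which mark chondrocytes, were present in all 10 libraries, with Col2a1 at 2456800 to 3090700 normalized counts at 4 weeks and 1273300 to 1607800 at 1 week. Prelp, Gdf10 and Bmp7, used as PZ markers in the study, stood at 4106%, 2191% and 1591% of their HZ means at 4 weeks and at 3079%, 2894% and 683% at 1 week. Tbx5 and Hoxd13, patterning genes of the forelimb and of the digits, averaged 0.200 and 1.02 normalized counts at 4 weeks and 0.885 and 2.72 at 1 week, where the PZ of the 1-week phalanx averaged 967 and 989.9.

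Of 15213 genes tested, 658 (4.33%) were called. There were 441 genes (2.9%) higher and 217 genes (1.43%) lower at 4 weeks. Among those called higher, 203 had changed over 4-fold and 98 over 8-fold, with a median log2 fold change of 1.89. Among those called lower the counts were 89 and 49, with a median of -1.63. The 5 libraries of each age did not overlap for 330 of the genes called higher and 197 of the genes called lower, while the groups lay apart for 9.19% (higher) and 8.4% (lower) of all tested genes. The median log2 fold change of all tested genes was 0.06. At an adjusted p under 0.05 with no fold minimum, which is the count used for gene lists below, 1304 genes (8.57%) passed, and 789 genes (5.19%) were higher and 515 (3.39%) lower. Fits of only these 10 libraries called 801 genes higher and 509 lower, and a fit with weights for each library called 1035 higher and 540 lower. With the mean level of the HZ markers Col10a1, Bmp2 and Mmp13 as a covariate, which was itself higher at 4 weeks, 68 were called higher and 57 lower.

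**Figure D1:**
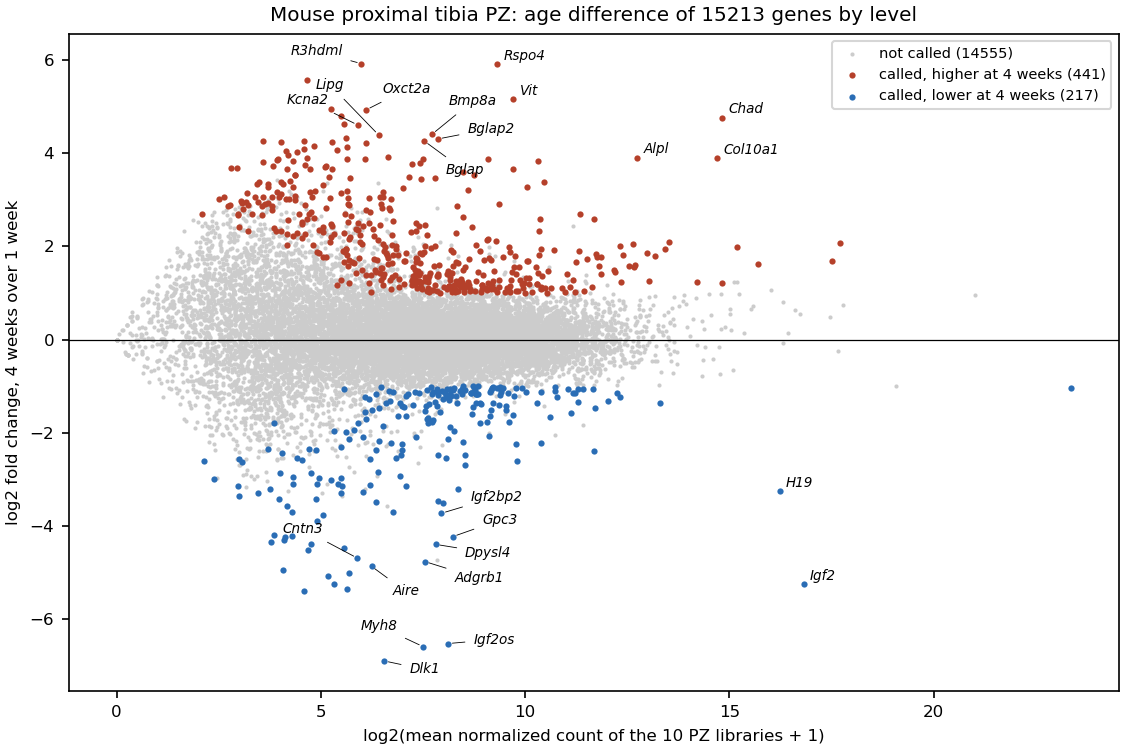
Each point is 1 of the 15213 tested genes, with the log2 of its mean normalized count over the 10 PZ libraries plus 1 on the x axis and its log2 fold change (4 weeks over 1 week) on the y axis, and called genes are coloured. Called genes lay on both sides of 0, with 441 above and 217 below.

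The 10 largest increases among genes whose groups did not overlap, and whose 4-week mean was at least 100 normalized counts, began with R3hdml, Rspo4 and Vit. R3hdml, which encodes a secreted peptidase inhibitor domain protein, had 90.2, 61.5, 319, 105 and 40.7 normalized counts in 4-week PZ libraries, against 0, 0, 0, 8.85 and 0 in 1-week PZ libraries (log2 fold change 5.92 ± 0.92 (SE), adjusted p = 4.02e-05). Rspo4, an R-spondin that strengthens Wnt signaling at its receptors, had 1646, 1091, 1121, 1393 and 998 normalized counts in 4-week PZ libraries, against 25.9, 9.02, 38.4, 13.3 and 22.4 in 1-week PZ libraries (log2 fold change 5.91 ± 0.89 (SE), adjusted p = 2.29e-05). Vit, which encodes the matrix protein vitrin, had 1719, 990.2, 1838, 1826 and 1767 normalized counts in 4-week PZ libraries, against 29.2, 91.1, 32.0, 49.8 and 35.9 in 1-week PZ libraries (log2 fold change 5.16 ± 0.47 (SE), adjusted p = 2.52e-09). All 5 of the 4-week libraries stood above all 1-week libraries for each of these genes, and R3hdml was at 0 in 4 of the 1-week libraries. Chad encodes chondroadherin, a leucine-rich matrix protein that chondrocytes bind, and had 41711, 43469, 81933, 65702 and 46264 normalized counts in 4-week PZ libraries, against 1629.7, 1959, 2064, 2172 and 2129 in 1-week PZ libraries (log2 fold change 4.76 ± 0.34 (SE), adjusted p = 1.11e-09). Its 1-week libraries lay close to each other and its lowest 4-week library was far above them. The others were the ketone body enzyme gene Oxct2a (log2 fold change 4.93 ± 0.70), the potassium channel gene Kcna2 (4.60 ± 1.05), the Bmp ligand gene Bmp8a (4.41 ± 0.33), the endothelial lipase gene Lipg (4.39 ± 0.70) and both osteocalcin genes, Bglap2 (4.31 ± 0.95) and Bglap (4.26 ± 1.15), and their adjusted p ranged from 1.96e-11 to 0.0168. Oxct2a lies within the span of Bmp8a on chromosome 4, and with the strand setting of the counting not stated their reads may not be separate, so the pair is uncertain as 2 increases. Bglap and Bglap2 are near-identical neighbours whose reads the counting could split or discard, so their separate values are uncertain, and Bglap was not called with 1 library left out (adjusted p = 0.0644 without replicate 2 of the 1-week libraries).

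The 10 largest decreases were led by Dlk1, an imprinted gene for a membrane protein of the Notch ligand family that is high in fetal and immature cells. Dlk1 had 0, 0, 0, 1.02 and 3.39 normalized counts in 4-week PZ libraries, against 239.9, 149.7, 194, 164 and 178 in 1-week PZ libraries (log2 fold change -6.89 ± 0.84 (SE), adjusted p = 6.51e-07). The 4-week replicates 1, 2 and 3 held no read of it, and replicates 4 and 5 held close to none. Igf2, the fetal insulin-like growth factor, and Igf2os, annotated on the strand opposite to it, fell with log2 fold changes of -5.24 ± 0.47 and -6.52 ± 1.07. Adgrb1, an adhesion G protein-coupled receptor gene, had 18.8, 10.5, 14.1, 6.10 and 11.9 normalized counts in 4-week PZ libraries, against 585, 323, 330, 195 and 372 in 1-week PZ libraries (log2 fold change -4.76 ± 1.02 (SE), adjusted p = 0.00217), and Dpysl4, a gene of the dihydropyrimidinase-like family studied in axon growth, had 34.8, 9.49, 14.7, 19.3 and 17.8 normalized counts in 4-week PZ libraries, against 756, 263, 439, 220.2 and 467 in 1-week PZ libraries (log2 fold change -4.39 ± 0.82 (SE), adjusted p = 0.000483). Neither gene had an overlap between the ages. Aire, best known as the regulator of self-antigen expression in the thymus, had 1.88, 3.50, 1.09, 7.63 and 9.33 normalized counts in 4-week PZ libraries, against 174, 191, 177, 93.0 and 87.5 in 1-week PZ libraries (log2 fold change -4.86 ± 0.66 (SE), adjusted p = 3.73e-06), and all of its 4-week libraries were under 10 normalized counts. The remaining genes were Myh8, a perinatal muscle myosin gene (-6.58 ± 1.17, with 1-week libraries that ran from 12.8 to 783 normalized counts), Cntn3, a contactin (-4.68 ± 1.05), Gpc3 (-4.22 ± 0.45) and Igf2bp2 (-3.72 ± 0.27). The 5 genes called lower that were at 0 in every 4-week library, named after their values were seen, were Adamts19, BC100530, Rasef, Slc22a14 and Zkscan2, and 8 genes called higher were at 0 in every 1-week library.

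Imprinted genes, which are expressed from the allele of 1 parent and often control fetal growth, had a median below that of all genes. Of 20 imprinted growth genes tested, 8 were lower, 0 were higher and 12 did not pass, with 11 whose groups lay apart below, 2 whose groups lay apart above (Sgce and Slc38a4, named after their values were seen) and a median log2 fold change of -0.69 against 0.06 over all genes. Over all tested genes, 3.39% were lower, 8.4% lay apart below and 9.19% lay apart above. Igf2 had 5584, 9917, 3459.5, 7897 and 4853 normalized counts in 4-week PZ libraries, against 235610, 241290, 238180, 229270 and 183120 in 1-week PZ libraries (log2 fold change -5.24 ± 0.47 (SE), adjusted p = 5.21e-08). H19, the non-coding RNA gene beside it that is expressed from the maternal allele, had 12031, 16623, 12900, 13952 and 18500 normalized counts in 4-week PZ libraries, against 158980, 141410, 145990, 129170 and 119280 in 1-week PZ libraries (log2 fold change -3.24 ± 0.52 (SE), adjusted p = 0.000253). Every 4-week library lay far below every 1-week library for both genes, and replicate 5 was the lowest of the 1-week libraries. Igf2os had 1.88, 20.0, 2.17, 4.58 and 5.94 normalized counts in 4-week PZ libraries, against 455, 502, 545, 629 and 606 in 1-week PZ libraries (log2 fold change -6.52 ± 1.07 (SE), adjusted p = 0.000109), and because the sources do not state whether reads were counted by strand, its reads and those of Igf2 cannot be told apart. Zim1, Peg10, Rian, Mirg, Rtl1 and Mir665 were named after their values were seen. Zim1, a zinc finger gene next to Peg3, had 2016 to 2845 normalized counts at 4 weeks and 4907 to 7343 at 1 week (log2 fold change -1.31 ± 0.39 (SE), adjusted p = 0.0389; adjusted p = 0.0997 without replicate 1 of the 1-week libraries). Peg10, a gene derived from a retrotransposon, had 1768 to 1902 at 4 weeks and 2689 to 5157 at 1 week (log2 fold change -0.98 ± 0.24 (SE), adjusted p = 0.00719).

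The Dlk1 to Mirg stretch of chromosome 12 (GRCm38, chr12:109452485-109749458) is an imprinted domain with the protein-coding genes Dlk1 and Rtl1 on the paternal allele and a row of non-coding RNA genes on the maternal allele. All 10 of its tested genes had a negative log2 fold change, 6 passed the test and 8 had groups that lay apart. Over all tested genes, 3.39% were lower and 8.4% lay apart below. Meg3, the long non-coding RNA gene that opens the maternal row, had 849, 1218, 1009, 1189.7 and 1051 normalized counts in 4-week PZ libraries, against 5965, 4504, 6667, 5946 and 4722 in 1-week PZ libraries (log2 fold change -2.38 ± 0.39 (SE), adjusted p = 0.000253). Rian, which hosts small nucleolar RNAs, had 402, 460.1, 399, 498 and 605 normalized counts in 4-week PZ libraries, against 2253, 2161, 2404, 2612 and 1576 in 1-week PZ libraries (log2 fold change -2.21 ± 0.40 (SE), adjusted p = 0.00049). Mirg, which hosts microRNAs, had 1.88, 18.0, 6.51, 28.5 and 24.6 normalized counts in 4-week PZ libraries, against 129, 138, 169, 211 and 82.2 in 1-week PZ libraries (log2 fold change -3.48 ± 0.84 (SE), adjusted p = 0.00642). The 4-week libraries were all below the 1-week libraries in these 3 genes. Mir665 (log2 fold change -2.96 ± 0.86 (SE), adjusted p = 0.0242; adjusted p = 0.0748 without replicate 1 of the 4-week libraries) had groups that overlapped, and Rtl1 did not pass (log2 fold change -2.26 ± 0.77 (SE), adjusted p = 0.0665) although its groups lay apart, at 48.9 to 132 normalized counts at 4 weeks and 244 to 583 at 1 week. Rtl1 and Mir665 overlap other transcripts of the domain on either strand, so their reads are uncertain. The small nucleolar RNA genes AF357425, AF357426 and AF357359 lie within the span of Rian. The 10 genes are thus not 10 separate results.

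Other genes known for fetal growth formed a list of their own. Of 8 fetal growth regulators tested, 5 were lower (against 3.39% of all genes), 0 were higher and 3 did not pass, with a median log2 fold change of -1.98. Gpc3 encodes glypican-3, a cell surface proteoglycan whose loss causes overgrowth in the mouse, and had 20.7, 52.0, 13.0, 33.6 and 40.7 normalized counts in 4-week PZ libraries, against 693, 575, 464, 407 and 695 in 1-week PZ libraries (log2 fold change -4.22 ± 0.45 (SE), adjusted p = 3.65e-08). Igf2bp2, whose protein binds Igf2 and other mRNAs, had 23.5, 43.0, 28.2, 31.0 and 47.5 normalized counts in 4-week PZ libraries, against 597, 417, 418, 406 and 459 in 1-week PZ libraries (log2 fold change -3.72 ± 0.27 (SE), adjusted p = 1.29e-11). Plag1, a zinc finger activator of Igf2, had 15.0, 44.5, 64.6, 41.7 and 8.48 normalized counts in 4-week PZ libraries, against 145, 158, 105, 75.3 and 193 in 1-week PZ libraries (log2 fold change -2.17 ± 0.58 (SE), adjusted p = 0.0146; adjusted p = 0.0664 without replicate 5 of the 4-week libraries). A wide gap lay between the ages for Gpc3 and Igf2bp2 and a narrow one for Plag1. Hmga2, a chromatin protein of dividing immature cells, was at 56.8 to 149.8 at 4 weeks and 188 to 517 at 1 week (log2 fold change -1.79 ± 0.34 (SE), adjusted p = 0.000569), and Igf2bp1 was at 0 to 3.39 at 4 weeks and 9.96 to 58.4 at 1 week (log2 fold change -3.58 ± 0.65 (SE), adjusted p = 0.000316).

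**Figure D2:**
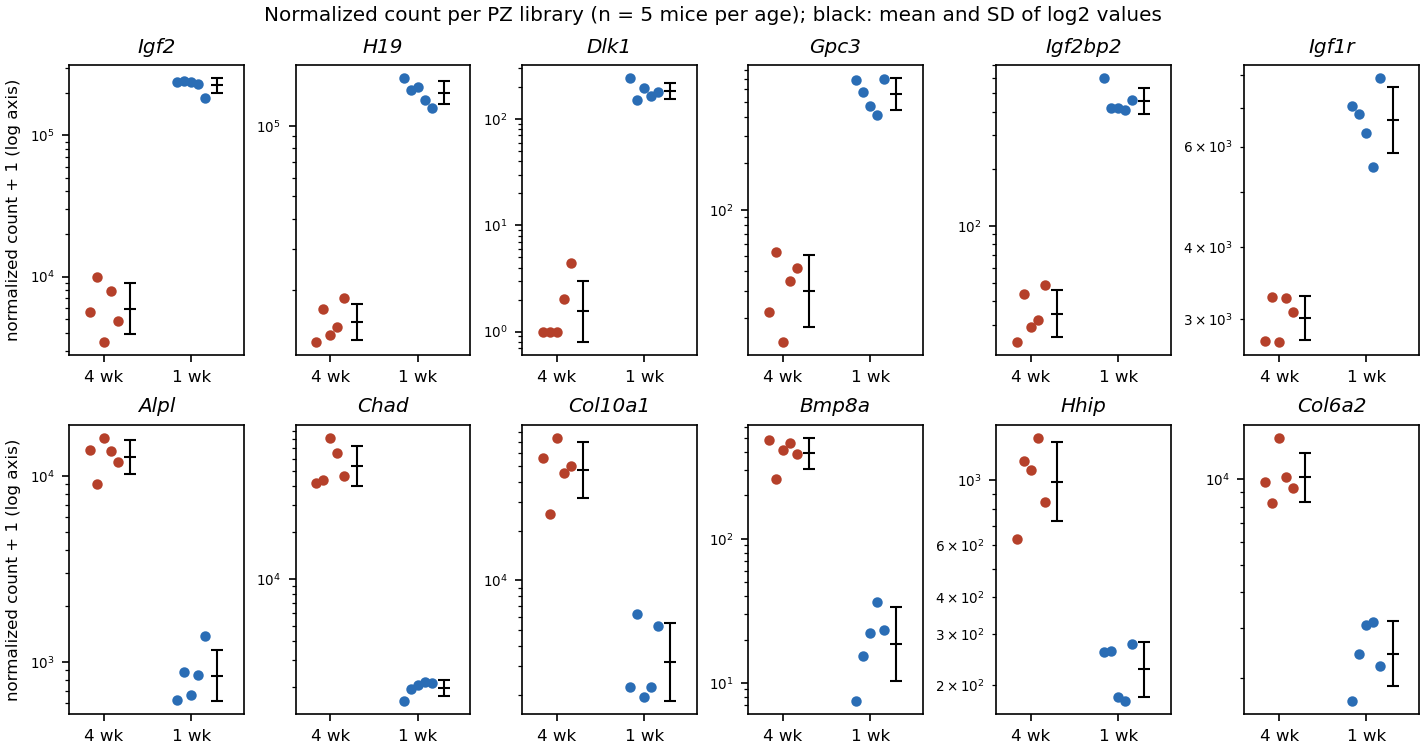
Each panel shows 1 gene, with the normalized count plus 1 of every PZ library on a log axis (5 at 4 weeks on the left, 5 at 1 week on the right) and, in black, the mean and SD of the log2 values. Igf2, H19, Dlk1, Gpc3, Igf2bp2 and Igf1r were lower in every 4-week library, and Alpl, Chad, Col10a1, Bmp8a, Hhip and Col6a2 were higher in every 4-week library.

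Promoter sequences are shown for matrix genes that rose (Chad, Col10a1, Bglap and Alpl) and for imprinted genes of the chromosome 12 domain that fell (Dlk1 and Meg3), 250 bases before to 50 bases after the annotated start, from RefSeq on GRCm38.p6. Capitals mark the motif TATAAA where its first base lies 40 to 20 bases before the start on the gene's strand, the place of a TATA box, and the other strand was not searched. Chad lies on the plus strand at chr11:94564797-94565096, Col10a1 on the plus strand at chr10:34389731-34390030, Bglap on the minus strand at chr3:88384417-88384716, Alpl on the minus strand at chr4:137796335-137796634, Meg3 on the plus strand at chr12:109540746-109541045 and Dlk1 on the plus strand at chr12:109452573-109452872.
Chad: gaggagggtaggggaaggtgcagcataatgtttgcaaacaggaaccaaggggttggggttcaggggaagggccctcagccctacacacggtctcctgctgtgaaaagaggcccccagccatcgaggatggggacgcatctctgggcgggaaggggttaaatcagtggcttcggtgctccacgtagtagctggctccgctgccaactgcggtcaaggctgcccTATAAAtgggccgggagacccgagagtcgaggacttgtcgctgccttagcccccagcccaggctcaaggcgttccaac
Col10a1: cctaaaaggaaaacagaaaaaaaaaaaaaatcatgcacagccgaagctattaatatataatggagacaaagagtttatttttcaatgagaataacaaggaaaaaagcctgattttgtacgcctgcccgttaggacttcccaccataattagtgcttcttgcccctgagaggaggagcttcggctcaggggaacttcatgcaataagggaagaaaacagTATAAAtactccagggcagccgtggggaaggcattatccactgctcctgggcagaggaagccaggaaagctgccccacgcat
Bglap: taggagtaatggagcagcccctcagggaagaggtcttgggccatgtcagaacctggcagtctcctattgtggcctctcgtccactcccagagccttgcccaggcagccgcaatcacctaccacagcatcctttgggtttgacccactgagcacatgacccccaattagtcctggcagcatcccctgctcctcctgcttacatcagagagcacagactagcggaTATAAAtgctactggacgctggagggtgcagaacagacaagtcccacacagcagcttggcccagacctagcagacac
Alpl: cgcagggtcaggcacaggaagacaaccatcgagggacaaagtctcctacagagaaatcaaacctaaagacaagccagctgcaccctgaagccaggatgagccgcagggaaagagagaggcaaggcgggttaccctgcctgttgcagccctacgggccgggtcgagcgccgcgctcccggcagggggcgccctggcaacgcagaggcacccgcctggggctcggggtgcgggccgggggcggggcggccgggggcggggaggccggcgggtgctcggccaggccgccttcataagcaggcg
Meg3: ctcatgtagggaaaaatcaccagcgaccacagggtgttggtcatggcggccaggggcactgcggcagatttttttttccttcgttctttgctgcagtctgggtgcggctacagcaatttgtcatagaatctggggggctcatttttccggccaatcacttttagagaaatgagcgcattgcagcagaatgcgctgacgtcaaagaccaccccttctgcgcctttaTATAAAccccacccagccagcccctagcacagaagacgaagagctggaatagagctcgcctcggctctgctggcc
Dlk1: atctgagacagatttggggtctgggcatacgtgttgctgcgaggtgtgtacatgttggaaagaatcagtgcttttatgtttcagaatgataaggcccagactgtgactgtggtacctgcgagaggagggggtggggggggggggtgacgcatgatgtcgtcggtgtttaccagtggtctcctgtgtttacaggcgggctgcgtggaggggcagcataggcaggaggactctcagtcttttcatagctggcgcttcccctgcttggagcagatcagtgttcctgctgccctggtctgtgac
The motif began 28 bases before the start in Chad, 32 in Col10a1, 27 in Bglap and 25 in Meg3, and these letters were not in that window of the Alpl and Dlk1 promoters shown. The Dlk1 gene span begins at chr12:109452485, upstream of the window shown, so for Dlk1 this holds only for the start shown. The table holds 2 starts for Alpl and for Meg3, of which 1 each is shown, chosen as a start with the motif where there was one. The motif was present in 655 of 32851 promoters of the table (1.99%), each start counted by itself. Counted by gene, with any start enough, it was present in 185 of 11369 tested genes (1.63%), in 11 of 334 genes called higher (3.29%) and in 4 of 161 genes called lower (2.48%). These shares are a description of the letters in the window.

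Insulin-like growth factors drive the division and the swelling of growth plate chondrocytes through the receptor Igf1r, and binding proteins hold the ligands away from it or near it. Of 6 genes of the pathway outside the imprinted list (Igf1, Igf1r, Insr, Irs1, Irs2 and Igfals), Igf1r alone passed, and the list median was -0.19. Igf1r had 2742, 3272, 2738, 3265 and 3086 normalized counts in 4-week PZ libraries, against 7050.3, 6833, 6341, 5521 and 7890.5 in 1-week PZ libraries (log2 fold change -1.15 ± 0.17 (SE), adjusted p = 3.08e-05), so that each 4-week library was below each 1-week library. Among 11 genes for Igf binding proteins and their proteases, 2 were higher and 1 lower. Igfbp7, a secreted relative of the binding proteins, had 1494, 1618, 1844, 1791 and 1888 normalized counts in 4-week PZ libraries, against 550.1, 695, 708, 964 and 891 in 1-week PZ libraries (log2 fold change 1.20 ± 0.30 (SE), adjusted p = 0.0113). Igfbp6, which prefers Igf2, was near the lower limit of detection, with 6.79 to 15.2 at 4 weeks and 0 to 2.16 at 1 week (log2 fold change 2.87 ± 0.90 (SE), adjusted p = 0.0403; adjusted p = 0.0982 without replicate 3 of the 4-week libraries). Stc1, an inhibitor of the proteases that cut binding proteins, was lower with overlapping groups, 3.05 to 45.8 at 4 weeks and 43.4 to 138 at 1 week (log2 fold change -2.31 ± 0.66 (SE), adjusted p = 0.022; adjusted p = 0.0862 without replicate 4 of the 4-week libraries). Igfbp4 (log2 fold change 0.50 ± 0.33, adjusted p = 0.429) and Igfbp5 (0.19 ± 0.64, adjusted p = 0.924) did not pass and their groups overlapped.

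Growth hormone acts on chondrocytes through its receptor and the transcription factor Stat5, which induces the feedback inhibitor Socs2. Of 8 genes tested, 2 were higher and 0 lower. Socs2 had 178, 193, 358, 286 and 195 normalized counts in 4-week PZ libraries, against 47.5, 77.6, 78.6, 139 and 135 in 1-week PZ libraries (log2 fold change 1.39 ± 0.28 (SE), adjusted p = 0.00131). Stat5b had 541, 552, 528, 778 and 630.4 normalized counts in 4-week PZ libraries, against 415, 314, 351, 348 and 352 in 1-week PZ libraries (log2 fold change 0.76 ± 0.20 (SE), adjusted p = 0.0113). Both genes had all 4-week libraries above all 1-week libraries.

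Bone morphogenetic proteins (Bmps) favour hypertrophy, and a set of secreted antagonists limits their range. Of 13 Bmp and Gdf ligands tested, 2 were higher and 0 lower. Bmp8a had 486, 259, 413, 459.8 and 388 normalized counts in 4-week PZ libraries, against 6.48, 14.4, 21.0, 35.4 and 22.4 in 1-week PZ libraries (log2 fold change 4.41 ± 0.33 (SE), adjusted p = 1.96e-11). Bmp6, made by chondrocytes close to hypertrophy, had 694, 272, 545, 438 and 439 normalized counts in 4-week PZ libraries, against 111, 233, 84.1, 145 and 191 in 1-week PZ libraries (log2 fold change 1.66 ± 0.47 (SE), adjusted p = 0.0257; adjusted p = 0.0815 without replicate 3 of the 1-week libraries). Neither ligand had an overlap between the ages, and Bmp8a stayed under 36 normalized counts in every 1-week library. Bmp2 (-0.12 ± 0.36, adjusted p = 0.912), Bmp3 (1.24 ± 0.79, adjusted p = 0.409), Bmp7 (-0.19 ± 0.53, adjusted p = 0.903) and Gdf10 (-0.78 ± 0.56, adjusted p = 0.484) did not pass, although Gdf10 had all of its 4-week libraries (1670.2 to 2298 normalized counts) below its 1-week libraries (2516 to 3883). Among 14 antagonists, 2 were higher. Chrdl1, a chordin-like antagonist, had 4465, 3542, 5357, 4617 and 4167 normalized counts in 4-week PZ libraries, against 859, 895, 550.3, 329.8 and 1027 in 1-week PZ libraries (log2 fold change 2.69 ± 0.47 (SE), adjusted p = 0.000461). Twsg1, a partner of chordin, had 2863 to 4227 at 4 weeks and 1810.1 to 2508 at 1 week (log2 fold change 0.80 ± 0.20 (SE), adjusted p = 0.00867), and Bmper did not pass (-0.22 ± 0.58, adjusted p = 0.901). Among 14 receptors, Smads and Id genes, the Bmp signal transducers Smad1 and Smad9 were lower and 0 were higher. Smad1 had 487, 516, 465, 492 and 400.5 normalized counts in 4-week PZ libraries, against 982, 925, 939.8, 974 and 816 in 1-week PZ libraries (log2 fold change -0.97 ± 0.19 (SE), adjusted p = 0.000942). Smad9 had 137 to 242 at 4 weeks and 323 to 489 at 1 week (log2 fold change -1.20 ± 0.27 (SE), adjusted p = 0.00298).

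Transforming growth factor beta restrains hypertrophy, and 2 of 13 of its ligands, receptors and latency proteins were higher. Tgfb2 had 1846, 1599, 1911, 2339 and 2200.1 normalized counts in 4-week PZ libraries, against 913, 1059.9, 928, 1026 and 1126 in 1-week PZ libraries (log2 fold change 0.96 ± 0.17 (SE), adjusted p = 0.00031). Tgfb3 had 481, 434, 517, 524 and 392 normalized counts in 4-week PZ libraries, against 126, 215, 246, 287 and 224 in 1-week PZ libraries (log2 fold change 1.14 ± 0.23 (SE), adjusted p = 0.00122). The other 11 members did not pass, and the list median was 0.46.

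Wnt5a orients dividing chondrocytes in their columns, and it was the single Wnt ligand of 7 tested that passed. Wnt5a had 148, 164, 104, 123 and 77.2 normalized counts in 4-week PZ libraries, against 457, 603, 390.4, 414 and 370.1 in 1-week PZ libraries (log2 fold change -1.88 ± 0.35 (SE), adjusted p = 0.000426). Its 4-week libraries were all below its 1-week libraries. Wnt4 (-0.33 ± 0.31, adjusted p = 0.621) and Wnt5b (-0.26 ± 0.28, adjusted p = 0.677) did not pass. Of 12 Wnt antagonists 2 were higher. Frzb, a secreted frizzled-related protein of cartilage, had 976, 502, 731, 740.1 and 758 normalized counts in 4-week PZ libraries, against 209.7, 266, 134, 107 and 334 in 1-week PZ libraries (log2 fold change 1.90 ± 0.40 (SE), adjusted p = 0.00281), with no overlap between the ages. Wif1, which binds Wnt ligands, had 261, 158, 73.3, 49.8 and 158 normalized counts in 4-week PZ libraries, against 4.32, 27.1, 101, 62.0 and 33.6 in 1-week PZ libraries (log2 fold change 1.91 ± 0.55 (SE), adjusted p = 0.0243; adjusted p = 0.111 without replicate 1 of the 1-week libraries), and 1-week replicates 3 and 4 lay within the 4-week range. Dkk3 (0.00 ± 0.88, adjusted p = 1) did not pass. Of 22 Wnt receptors and response genes, the receptor gene Fzd1 was lower, with 162 to 292 at 4 weeks and 519 to 782 at 1 week (log2 fold change -1.45 ± 0.34 (SE), adjusted p = 0.00511), and the other 21 did not pass. Rspo4, given above, stands outside these lists. Fzd9 (0.70 ± 0.76, adjusted p = 0.691), Epha3 (0.06 ± 0.57, adjusted p = 0.977) and Panx2 (-0.86 ± 0.77, adjusted p = 0.603), which the study also names, did not pass.

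Indian hedgehog from cells entering hypertrophy keeps columnar cells dividing and maintains parathyroid hormone-related protein (PTHrP, gene Pthlh), which delays hypertrophy through the receptor Pth1r. Of 11 genes tested, 3 were higher and 2 lower (against 5.19% and 3.39% of all genes). Hhip, a hedgehog target whose protein binds and blocks the ligand, had 631, 1165, 1085, 1397 and 845 normalized counts in 4-week PZ libraries, against 259, 261, 181, 176 and 275 in 1-week PZ libraries (log2 fold change 2.12 ± 0.29 (SE), adjusted p = 7.25e-06). Gli1, a target and effector of hedgehog, had 952, 1258, 1089, 1076 and 1016 normalized counts in 4-week PZ libraries, against 2818, 1971, 2445, 2485 and 1853 in 1-week PZ libraries (log2 fold change -1.09 ± 0.30 (SE), adjusted p = 0.0191; adjusted p = 0.0605 without replicate 1 of the 1-week libraries). Ptch1, the hedgehog receptor and itself a target, had 8012, 10105, 8966, 10864 and 9477 normalized counts in 4-week PZ libraries, against 16401, 15150, 15558, 13014 and 17459 in 1-week PZ libraries (log2 fold change -0.71 ± 0.19 (SE), adjusted p = 0.0177; adjusted p = 0.054 without replicate 1 of the 4-week libraries). The 3 hedgehog targets thus lay on both sides of 0, Hhip above and Gli1 and Ptch1 below, each without overlap between the ages. Pth1r had 12392, 10460, 12054, 12893 and 11263 normalized counts in 4-week PZ libraries, against 5401, 7348, 3709, 4299.9 and 4578 in 1-week PZ libraries (log2 fold change 1.26 ± 0.23 (SE), adjusted p = 0.000558). Pthlh itself was at 13.2, 16.0, 3.26, 13.2 and 5.09 in 4-week libraries, against 0 in 4 of the 1-week libraries and 19.5 in replicate 1 (log2 fold change 2.42 ± 0.77 (SE), adjusted p = 0.0454; adjusted p = 0.118 without replicate 3 of the 1-week libraries), which is close to the detection limit. Ihh did not pass (0.56 ± 0.34, adjusted p = 0.383).

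Fibroblast growth factor signaling through Fgfr3 slows chondrocyte division. Of 16 genes tested, Fgf1, a ligand of all Fgf receptors, was higher and 0 were lower. Fgf1 had 42.3, 111, 242, 146 and 101 normalized counts in 4-week PZ libraries, against 6.48, 39.7, 25.6, 28.8 and 18.7 in 1-week PZ libraries (log2 fold change 2.37 ± 0.57 (SE), adjusted p = 0.00612). Among 3 genes of C-type natriuretic peptide signaling none passed.

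Of 20 transcription factors of chondrocytes, 4 were higher (against 5.19% of all genes) and 0 lower. Foxa2, which acts in hypertrophic chondrocytes, had 197, 209, 219, 369 and 240.1 normalized counts in 4-week PZ libraries, against 56.2, 119, 56.7, 99.6 and 48.6 in 1-week PZ libraries (log2 fold change 1.74 ± 0.37 (SE), adjusted p = 0.0022). Mef2c, an activator of Col10a1, had 7113, 4949.5, 6775, 5906 and 5468 normalized counts in 4-week PZ libraries, against 2429, 3714, 2622, 2752 and 4101 in 1-week PZ libraries (log2 fold change 0.97 ± 0.17 (SE), adjusted p = 0.000336). Trps1, a repressor of the Gata family, had 8905, 7771, 9652, 8939 and 8645 normalized counts in 4-week PZ libraries, against 4202, 5856, 4879, 5411 and 5880 in 1-week PZ libraries (log2 fold change 0.75 ± 0.14 (SE), adjusted p = 0.000471). The ages did not overlap in these 3, while Mef2a, at 1465 to 1980.1 at 4 weeks and 774 to 1499.9 at 1 week, did (log2 fold change 0.74 ± 0.13 (SE), adjusted p = 0.00032). Sox9, the master factor of cartilage, named after its values were seen, was at 10998 to 12845 at 4 weeks and 8089 to 12344 at 1 week (log2 fold change 0.20 ± 0.42 (SE), adjusted p = 0.873). Of 16 limb patterning genes none passed, among them Tbx5 (adjusted p = 0.906) and Hoxd13 (adjusted p = 0.508).

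**Figure D3:**
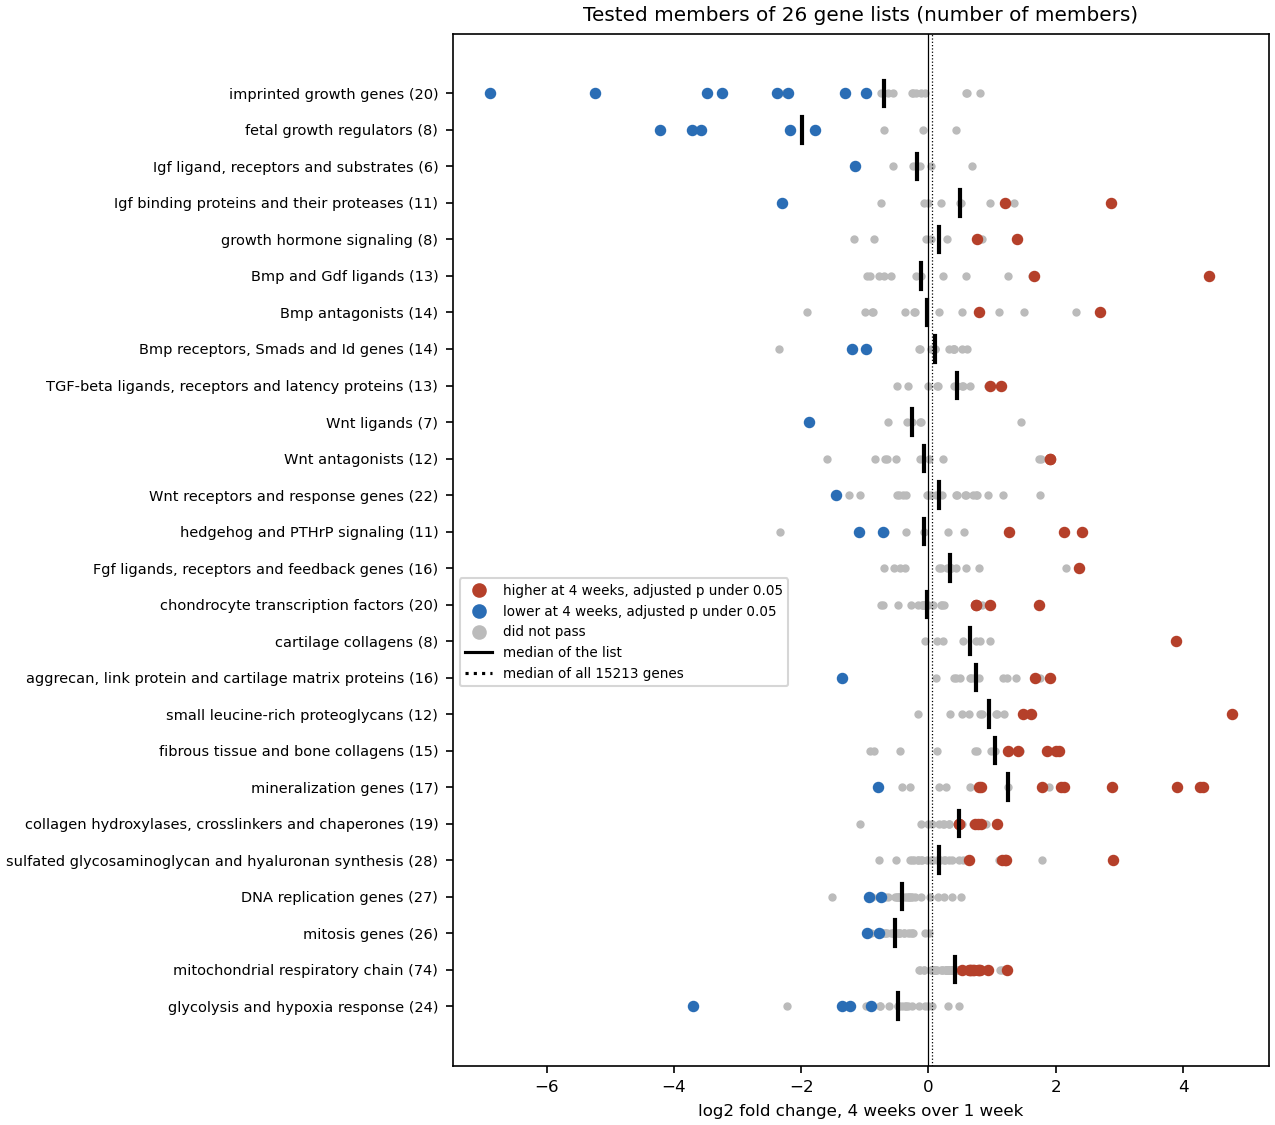
Each row is 1 of 26 gene lists with its number of tested members, each point a member's log2 fold change (4 weeks over 1 week), coloured where the adjusted p was under 0.05, with a bar at the list's median and a dotted line at the median of all genes. Imprinted growth genes and fetal growth regulators lay at medians of -0.69 and -1.98, and mineralization genes and fibrous tissue and bone collagens at 1.25 and 1.04.

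Cartilage matrix was mostly higher in value at 4 weeks, while few of its genes passed the test, whose SE rests on all 6 mouse groups. Of 8 cartilage collagens Col10a1 was higher, the others did not pass, 5 had groups that lay apart above, and the median was 0.65. Col10a1, the collagen of hypertrophic chondrocytes, had 56065, 25234, 74084, 44811 and 49561 normalized counts in 4-week PZ libraries, against 2244, 6228, 1943, 2252 and 5251 in 1-week PZ libraries (log2 fold change 3.89 ± 0.52 (SE), adjusted p = 2.45e-05). Col2a1 had 2456800, 2671500, 2927600, 3090700 and 2922200 normalized counts in 4-week PZ libraries, against 1450500, 1607800, 1402600, 1273300 and 1453700 in 1-week PZ libraries (log2 fold change 0.97 ± 0.38 (SE), adjusted p = 0.127), and so did not pass although its groups lay apart. Acan, the aggrecan gene, named after its values were seen, likewise lay at 191890 to 228660 at 4 weeks and 126590 to 171960 at 1 week (log2 fold change 0.49 ± 0.33 (SE), adjusted p = 0.433). Of 16 aggrecan-associated and other cartilage matrix genes, 2 were higher, 1 was lower and 10 had groups that lay apart above, with a median of 0.75. Over all tested genes, 5.19% were higher, 3.39% were lower and 9.19% had groups that lay apart above. Hapln1, the link protein that ties aggrecan to hyaluronan, had 269400, 220740, 315160, 295930 and 313330 normalized counts in 4-week PZ libraries, against 78726, 116630, 74122, 61651 and 122940 in 1-week PZ libraries (log2 fold change 1.68 ± 0.48 (SE), adjusted p = 0.0299; adjusted p = 0.0729 without replicate 4 of the 1-week libraries). Scrg1, a small secreted protein of cartilage, had 3384 to 4607 at 4 weeks and 941 to 1352 at 1 week (log2 fold change 1.91 ± 0.60 (SE), adjusted p = 0.0482; adjusted p = 0.0948 without replicate 5 of the 4-week libraries). Matn1, matrilin-1 of young cartilage, had 5325, 4825, 6547, 5713 and 5655 normalized counts in 4-week PZ libraries, against 16865, 15120, 14233, 9288 and 18243 in 1-week PZ libraries (log2 fold change -1.36 ± 0.39 (SE), adjusted p = 0.0286; adjusted p = 0.0737 without replicate 1 of the 1-week libraries), the single member that was lower.

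Small leucine-rich proteoglycans bind collagen fibrils and growth factors. Of 12 tested, 3 were higher (against 5.19% of all genes), 0 lower and 7 had groups that lay apart above (against 9.19%), with a median of 0.95. Besides Chad, Bgn (biglycan) had 67134, 72366, 87556, 87462 and 85183 normalized counts in 4-week PZ libraries, against 20760, 24645, 29933, 31633 and 24342 in 1-week PZ libraries (log2 fold change 1.61 ± 0.13 (SE), adjusted p = 2.93e-10), and Omd (osteomodulin) had 440.1 to 735 at 4 weeks and 137 to 295 at 1 week (log2 fold change 1.49 ± 0.46 (SE), adjusted p = 0.0342; adjusted p = 0.101 without replicate 3 of the 4-week libraries). Prelp did not pass (log2 fold change 0.63 ± 0.76 (SE), adjusted p = 0.729), although its 4-week libraries (94916 to 143650) lay above its 1-week libraries (67112 to 85102).

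Of 15 collagens of fibrous tissue and bone, 5 were higher (against 5.19% of all genes), 0 lower, and the median was 1.04. The groups lay apart above for 5 members and below for 1, against 9.19% and 8.4% of all genes. All 3 chains of type VI collagen, a filament of the matrix next to the cell, were higher. Col6a1 had 12035, 10847, 15637, 12911 and 11537 normalized counts in 4-week PZ libraries, against 2335, 3649, 4092, 4439 and 3137 in 1-week PZ libraries (log2 fold change 1.86 ± 0.23 (SE), adjusted p = 3.14e-06). Col6a2 had 9759.7, 8258, 13959, 10165 and 9283 normalized counts in 4-week PZ libraries, against 1662, 2426, 3074, 3144 and 2212 in 1-week PZ libraries (log2 fold change 2.05 ± 0.23 (SE), adjusted p = 6.25e-07). Col6a3 was at 23172 to 30480 at 4 weeks and 9679.6 to 12167 at 1 week (log2 fold change 1.24 ± 0.20 (SE), adjusted p = 0.000234). In each chain the highest 1-week library was below the lowest 4-week library. Col12a1, which lies on the surface of fibrils, had 43811, 59167, 78927, 64860 and 50714 normalized counts in 4-week PZ libraries, against 10427, 13571, 16098, 21491 and 13510 in 1-week PZ libraries (log2 fold change 2.00 ± 0.23 (SE), adjusted p = 1.89e-06). Col5a1, which starts fibrils of type I collagen, was at 2255 to 3819 at 4 weeks and 605 to 1982 at 1 week (log2 fold change 1.41 ± 0.38 (SE), adjusted p = 0.0192; adjusted p = 0.0735 without replicate 1 of the 1-week libraries). The type I collagen genes Col1a1 and Col1a2 did not pass.

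Mineralization genes gave the largest share of passing members among the matrix lists, with 9 of 17 higher, 1 lower (the phosphate transporter gene Slc20a1) and a median of 1.25. Over all tested genes, 5.19% were higher and 3.39% lower. The groups lay apart above for 5 members and below for 1, against 9.19% and 8.4% of all genes. Alpl, tissue-nonspecific alkaline phosphatase, which removes the inhibitor pyrophosphate, had the smallest adjusted p of the whole comparison. It had 13827, 9043, 16048, 13538 and 11879 normalized counts in 4-week PZ libraries, against 619, 881, 663, 853 and 1377 in 1-week PZ libraries (log2 fold change 3.91 ± 0.18 (SE), adjusted p = 9.42e-16). A wide gap lay between the ages, and replicate 5 was the highest of the 1-week libraries. Sparc, osteonectin, had 307510, 309930, 401630, 367680 and 342700 normalized counts in 4-week PZ libraries, against 62525, 77085, 84987, 98222 and 88891 in 1-week PZ libraries (log2 fold change 2.08 ± 0.18 (SE), adjusted p = 3.39e-08), and the ages did not overlap. Bglap2, one of the osteocalcin genes, had 1189, 273, 195, 180.1 and 330.1 normalized counts in 4-week PZ libraries, against 15.1, 0, 93.2, 28.8 and 26.9 in 1-week PZ libraries (log2 fold change 4.31 ± 0.95 (SE), adjusted p = 0.00329), with replicate 1 high among the 4-week libraries. In the limma fit of only the 10 PZ libraries with replicate number as a block, Bglap2 did not pass (adjusted p = 0.065). Enpp1, which makes pyrophosphate and so opposes Alpl, was at 3468 to 4703 at 4 weeks and 1971 to 2654 at 1 week (log2 fold change 0.79 ± 0.17 (SE), adjusted p = 0.00186). Ibsp, bone sialoprotein, had 7920.3, 8003, 4646, 3145 and 2814 normalized counts in 4-week PZ libraries, against 254, 1155, 1205, 4009.9 and 3883 in 1-week PZ libraries (log2 fold change 1.78 ± 0.52 (SE), adjusted p = 0.0333; adjusted p = 0.104 without replicate 1 of the 1-week libraries), with 1-week replicates 4 and 5 inside the 4-week range.

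Markers of the HZ and of bone were measured in the same libraries. Of 8 HZ markers, Col10a1 and Ibsp were higher and 6 did not pass, with Bmp2 and Phospho1 below 0 in value. Their summed normalized count, to which Col10a1 and Panx3 gave the most at 4 weeks, was 68344 to 113500 (median 90351) at 4 weeks and 21842 to 39222 (median 30006) at 1 week. Panx3 averaged 28115 at 4 weeks and 19762 at 1 week, and Col10a1 averaged 49951 and 3583. Col10a1 alone of the 8 markers had groups that did not overlap. None of the 8 was at 0 in all libraries of an age. Col10a1 in the PZ was 9.89% of its HZ mean at 4 weeks and 1.87% at 1 week. Mmp13 was at 5.20% at 4 weeks and 4.27% at 1 week, and Bmp2 at 8.90% at 4 weeks and 6.84% at 1 week, while Ibsp was at 7.08% at 4 weeks and 10.1% at 1 week and Spp1 at 8.23% at 4 weeks and 9.25% at 1 week. Panx3 was above its HZ mean at both ages (368% at 4 weeks and 161% at 1 week), so it did not mark the HZ here. Phospho1 was above its HZ mean at 4 weeks (156%) and below it at 1 week (51.7%), so it did not mark the HZ at 4 weeks. Mmp13 (998 to 7319.6 normalized counts at 4 weeks, 279 to 4121 at 1 week, adjusted p = 0.274) did not pass. Alpl stood at 54.2% of its HZ mean at 4 weeks and 6.54% at 1 week, and Bgn, Chad and Sparc were above their HZ means at both ages (251%, 166% and 159% at 4 weeks and 228%, 106% and 105% at 1 week). Of 10 osteoblast and osteocyte markers 4 were higher (against 5.19% of all genes), among them Bglap and Bglap2. Their summed count overlapped between the ages (39452 to 181130 at 4 weeks, 12932 to 128120 at 1 week). The resting zone borders the PZ on its other side. Of its 4 markers, Pthlh and Apoe (log2 fold change 1.50, adjusted p = 0.0143, and 0.0614 without replicate 2 of the 1-week libraries) were higher. Sfrp5 and Clu did not pass. The median was 1.14, with 1 member apart above and 1 apart below. Their summed count overlapped, at 323 to 492 at 4 weeks and 395 to 598 at 1 week. The part of HZ, resting zone or bone cells in the results on matrix was not tested. With the HZ marker score as a covariate, 34 of the 147 named genes that passed still did. Among them were Alpl, Chad, Bgn, Sparc, Col6a1, Col6a2, Col6a3, Col12a1, Bmp8a, Hhip, Igf2, Dlk1, Gpc3, Igf2bp2, Wnt5a and Ccnd2. The score was itself higher at 4 weeks, so this fit cannot separate the part of HZ cells from that of age. Some genes that no longer passed, such as Adgrb1 and Foxa2, kept fold changes at least as large as in the main fit. Others, such as Bmp6 and Ibsp, had much smaller ones. In bulk samples, fewer cells of a type and less RNA per cell cannot be told apart.

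**Figure D4:**
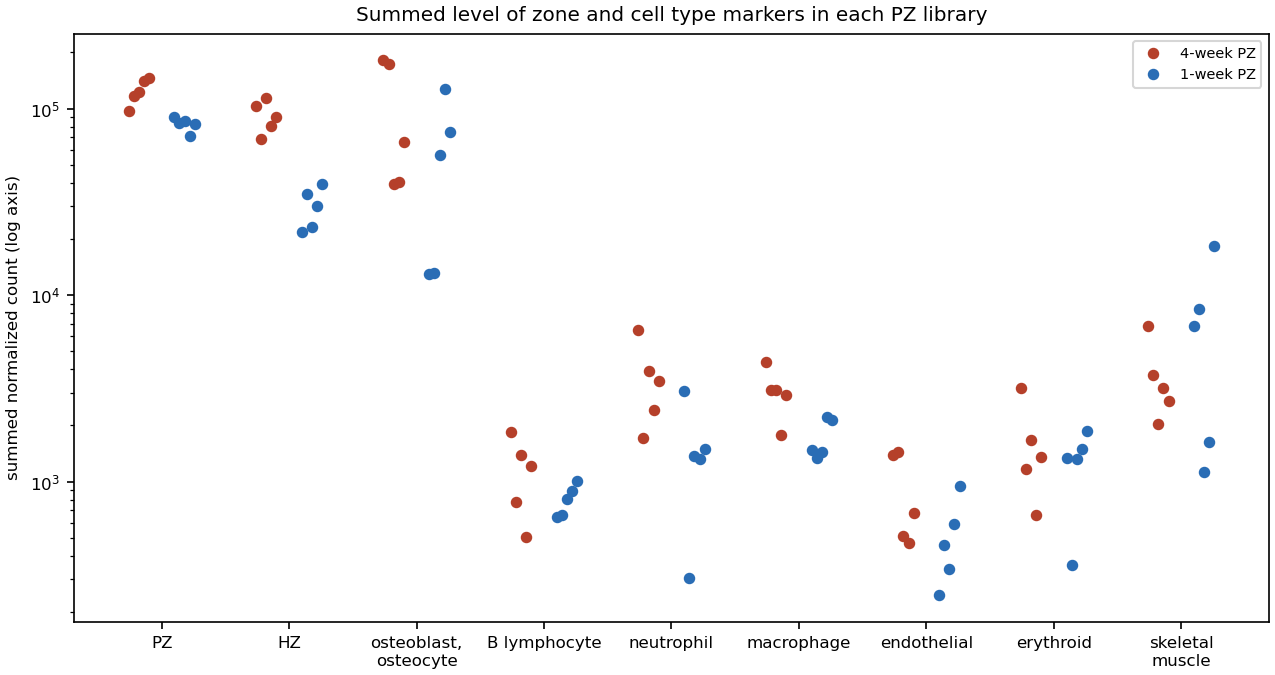
For each list shown of zone or cell type markers the points are the summed normalized counts of the 5 4-week PZ libraries (left) and the 5 1-week PZ libraries (right) on a log axis. The sum of HZ markers was 68344 to 113500 at 4 weeks and 21842 to 39222 at 1 week without overlap. It includes Panx3, which did not mark the HZ here. The sum of PZ markers was 97293 to 146700 at 4 weeks and 71153 to 89803 at 1 week, also without overlap. The sums of osteoblast, B lymphocyte, neutrophil, macrophage, endothelial, erythroid and muscle markers overlapped. Ebf1 made up most of the B lymphocyte sum at 1 week.

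Enzymes that fold, modify and join collagen were higher in value. Of 19 tested, 6 were higher (against 5.19% of all genes), 0 lower and 9 had groups that lay apart above (against 9.19%), with a median of 0.48. Serpinh1, the collagen chaperone Hsp47, had 17605, 17344, 18625, 19141 and 22067 normalized counts in 4-week PZ libraries, against 9586, 12839, 10613, 10290 and 10207 in 1-week PZ libraries (log2 fold change 0.83 ± 0.12 (SE), adjusted p = 2.22e-05). P4hb, the beta subunit of prolyl 4-hydroxylase, was at 15387 to 19313 at 4 weeks and 9095 to 11924 at 1 week (log2 fold change 0.73 ± 0.12 (SE), adjusted p = 0.000104). Loxl2, a lysyl oxidase that makes crosslinks, was at 4613 to 6016 at 4 weeks and 2011 to 4121 at 1 week (log2 fold change 0.78 ± 0.15 (SE), adjusted p = 0.000898), and Ppib, cyclophilin B of the prolyl 3-hydroxylase complex, at 377 to 472 at 4 weeks and 173 to 261 at 1 week (log2 fold change 1.08 ± 0.27 (SE), adjusted p = 0.0077). Of 20 genes of folding and stress in the endoplasmic reticulum 5 were higher and 0 lower, with a median of 0.33, all by less than 2-fold. Dnajc3, a co-chaperone, had 2307, 2069.8, 2668, 2307 and 2462 normalized counts in 4-week PZ libraries, against 1283, 1432, 1377, 1039 and 1605 in 1-week PZ libraries (log2 fold change 0.82 ± 0.14 (SE), adjusted p = 0.00011). Pdia3, a disulfide isomerase, was at 4523 to 5836 at 4 weeks and 3061 to 3908 at 1 week (log2 fold change 0.59 ± 0.13 (SE), adjusted p = 0.00224), with no overlap in either gene. The chaperones Hspa5 (log2 fold change 0.48 ± 0.13 (SE), adjusted p = 0.0163; adjusted p = 0.0705 without replicate 5 of the 4-week libraries) and Canx (log2 fold change 0.34 ± 0.10 (SE), adjusted p = 0.0276; adjusted p = 0.0819 without replicate 4 of the 1-week libraries) and the collagen export receptor gene Mia3 (log2 fold change 0.45 ± 0.14 (SE), adjusted p = 0.0292; adjusted p = 0.0692 without replicate 3 of the 4-week libraries) changed less.

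Sulfated glycosaminoglycans carry the charge of cartilage. Of 28 genes that make them or hyaluronan, 5 were higher (against 5.19% of all genes) and 0 lower, with a median of 0.17. Csgalnact2, which starts chondroitin chains, had 351, 333, 427, 436 and 372 normalized counts in 4-week PZ libraries, against 152, 131, 212, 169 and 206 in 1-week PZ libraries (log2 fold change 1.15 ± 0.28 (SE), adjusted p = 0.00604). Chst3, a chondroitin 6-sulfotransferase, had 295, 75.4, 220.3, 51.4 and 126 normalized counts in 4-week PZ libraries, against 9.73, 5.41, 20.1, 50.9 and 17.9 in 1-week PZ libraries (log2 fold change 2.90 ± 0.70 (SE), adjusted p = 0.00692), with its lowest 4-week library barely above its highest 1-week library. Has2, a hyaluronan synthase, had 1312, 1104, 1448, 1296 and 1520.5 normalized counts in 4-week PZ libraries, against 697, 832, 457, 479 and 505 in 1-week PZ libraries (log2 fold change 1.20 ± 0.31 (SE), adjusted p = 0.0118), without overlap. Papss2, which makes the sulfate donor, was at 34009 to 44179 at 4 weeks and 14497 to 21049 at 1 week (log2 fold change 1.21 ± 0.35 (SE), adjusted p = 0.0295; adjusted p = 0.0686 without replicate 1 of the 1-week libraries). Chst15 was at 1725 to 1878 at 4 weeks and 1040.4 to 1287 at 1 week (log2 fold change 0.63 ± 0.20 (SE), adjusted p = 0.0381; adjusted p = 0.0856 without replicate 4 of the 1-week libraries). Among 25 heparan sulfate proteoglycans and their enzymes, Sdc3 (syndecan-3, log2 fold change 0.92 ± 0.17 (SE), adjusted p = 0.000487) and Gpc1 (glypican-1, log2 fold change 0.65 ± 0.12 (SE), adjusted p = 0.000613) were higher and Gpc3 was lower. The glypicans Gpc1 and Gpc3 thus changed in opposite directions, Gpc1 at 5717 to 6750.4 at 4 weeks and 3554 to 4722 at 1 week. Among 14 integrins, the shared beta chain gene Itgb1 was higher (log2 fold change 0.67 ± 0.14 (SE), adjusted p = 0.0022), and Itga6 (log2 fold change -0.55 ± 0.18 (SE), adjusted p = 0.0463; adjusted p = 0.13 without replicate 4 of the 4-week libraries) and Itgb8 (log2 fold change -3.41 ± 0.62 (SE), adjusted p = 0.000345) were lower. Among 14 Ccn proteins and Yap-Tead genes, Ctgf, a matrix-bound growth regulator, had 7464, 3865, 8601, 17228 and 5983 normalized counts in 4-week PZ libraries, against 1559, 1846, 2273, 2069.7 and 3418 in 1-week PZ libraries (log2 fold change 1.82 ± 0.33 (SE), adjusted p = 0.000677), and the coactivator gene Wwtr1 was at 2402 to 3258 at 4 weeks and 1368 to 2034 at 1 week (log2 fold change 0.68 ± 0.15 (SE), adjusted p = 0.00262).

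Proteases of the Adamts family cut aggrecan and process collagens, and 4 of 17 were higher and 2 lower (against 5.19% and 3.39% of all genes). Adamts5, an aggrecanase, had 194, 201, 143, 165 and 115 normalized counts in 4-week PZ libraries, against 34.6, 19.8, 38.4, 70.8 and 92.0 in 1-week PZ libraries (log2 fold change 1.82 ± 0.41 (SE), adjusted p = 0.0037). It did not pass with voom (adjusted p = 0.104). Adamts1 was at 404 to 671 at 4 weeks and 184 to 338 at 1 week (log2 fold change 1.14 ± 0.25 (SE), adjusted p = 0.00245). Adamts9 had 342, 345, 138, 189 and 216 normalized counts in 4-week PZ libraries, against 559.8, 638, 889, 1340.3 and 705 in 1-week PZ libraries (log2 fold change -1.76 ± 0.33 (SE), adjusted p = 0.00062). Adamts5 and Adamts1 thus lay above and Adamts9 below the other age in every library. Adamts2, which trims procollagen, overlapped between the ages at 146 to 613 at 4 weeks and 37.0 to 238 at 1 week (log2 fold change 1.60 ± 0.46 (SE), adjusted p = 0.0275; adjusted p = 0.101 without replicate 1 of the 1-week libraries), and the aggrecanase gene Adamts4 did not pass (0.54 ± 0.60, adjusted p = 0.699). Of 18 matrix metalloproteinases and their inhibitors, 2 were higher. Timp3, an inhibitor of metalloproteinases and aggrecanases, had 5432, 4085, 6945, 5270 and 5031 normalized counts in 4-week PZ libraries, against 2609.8, 2076, 1486, 1452 and 2724 in 1-week PZ libraries (log2 fold change 1.40 ± 0.28 (SE), adjusted p = 0.00212). Mmp25 was low at both ages, 22.0 to 88.3 at 4 weeks and 0 to 11.9 at 1 week (log2 fold change 4.27 ± 0.81 (SE), adjusted p = 0.000524).

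Cell division genes were lower in value at 4 weeks, and few passed. Of 26 mitosis genes 2 were lower, 0 were higher and 13 had groups that lay apart below, with a median of -0.53. Of 27 DNA replication genes 2 were lower, 0 were higher and 5 had groups that lay apart below, with a median of -0.42. Over all tested genes, 3.39% were lower and 8.4% had groups that lay apart below. Cenpe, the kinetochore motor, had 892, 941, 826, 901 and 826 normalized counts in 4-week PZ libraries, against 1724, 1443, 1577, 1368 and 1402 in 1-week PZ libraries (log2 fold change -0.77 ± 0.19 (SE), adjusted p = 0.00832). Ncapd2, a condensin subunit, was at 509.6 to 741 at 4 weeks and 957 to 1409 at 1 week (log2 fold change -0.96 ± 0.30 (SE), adjusted p = 0.0396; adjusted p = 0.104 without replicate 3 of the 4-week libraries). Chaf1a, of the chromatin assembly factor, was at 205 to 329 at 4 weeks and 431 to 707 at 1 week (log2 fold change -0.94 ± 0.29 (SE), adjusted p = 0.035; adjusted p = 0.121 without replicate 1 of the 1-week libraries), and Lig1, the replicative DNA ligase, at 390.2 to 542 at 4 weeks and 587 to 1144 at 1 week (log2 fold change -0.75 ± 0.24 (SE), adjusted p = 0.0422; adjusted p = 0.156 without replicate 1 of the 1-week libraries). The D cyclins, which let cells enter the cycle, split. Ccnd2 had 449, 445, 414, 277 and 441 normalized counts in 4-week PZ libraries, against 953, 888, 1335, 1126 and 1103 in 1-week PZ libraries (log2 fold change -1.42 ± 0.22 (SE), adjusted p = 3.58e-05). Ccnd1 had 1697, 2868, 2844, 2836 and 2765 normalized counts in 4-week PZ libraries, against 1643, 1325, 1426, 1360.3 and 1591 in 1-week PZ libraries (log2 fold change 0.80 ± 0.26 (SE), adjusted p = 0.0491; adjusted p = 0.111 without replicate 3 of the 4-week libraries), with replicate 1 the lowest of its 4-week libraries and just above the highest 1-week library.

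Of 10 inhibitors of cyclin-dependent kinases and genes used as signs of cellular senescence, 2 were higher and 1 lower. Glb1, which encodes lysosomal beta-galactosidase, had 222, 381, 222, 233 and 223 normalized counts in 4-week PZ libraries, against 29.2, 69.5, 146, 172 and 179 in 1-week PZ libraries (log2 fold change 1.34 ± 0.38 (SE), adjusted p = 0.0211; adjusted p = 0.1 without replicate 1 of the 1-week libraries). Lmnb1, the lamin lost in senescent cells, was at 268 to 364 at 4 weeks and 479.9 to 691 at 1 week (log2 fold change -0.90 ± 0.27 (SE), adjusted p = 0.0316; adjusted p = 0.0901 without replicate 3 of the 4-week libraries). A further 7 did not pass, and Cdkn2a was too low to be tested. Among 17 immediate early genes, Fosl2 was higher (log2 fold change 0.85 ± 0.18 (SE), adjusted p = 0.0021), and Nr4a1 (log2 fold change -1.98 ± 0.44 (SE), adjusted p = 0.00274) and Fosb (log2 fold change -1.96 ± 0.61 (SE), adjusted p = 0.0388; adjusted p = 0.137 without replicate 1 of the 1-week libraries) were lower.

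Genes of oxidative metabolism, and a joint list of glycolysis and the response to low oxygen, had medians on opposite sides of 0. Of 74 respiratory chain genes 11 were higher (against 5.19% of all genes), 0 were lower and 21 had groups that lay apart above (against 9.19%), with a median of 0.42. Ndufa1, a subunit of complex I, had 593, 363, 655, 515 and 608 normalized counts in 4-week PZ libraries, against 173, 220.1, 230.4, 195 and 345 in 1-week PZ libraries (log2 fold change 1.24 ± 0.30 (SE), adjusted p = 0.00612). Sdha, the flavoprotein of complex II, was at 1459.6 to 1728 at 4 weeks and 939.9 to 1165 at 1 week (log2 fold change 0.64 ± 0.15 (SE), adjusted p = 0.00617). The ATP synthase genes Atp5j (log2 fold change 0.93 ± 0.20 (SE), adjusted p = 0.00234) and Atp5f1 (log2 fold change 0.66 ± 0.19 (SE), adjusted p = 0.0228; adjusted p = 0.0706 without replicate 1 of the 1-week libraries) had overlapping groups, in both through 1-week replicate 5. Of 24 genes of glycolysis and the response to low oxygen, 4 were lower (against 3.39% of all genes) and 0 were higher, with a median of -0.48. Pfkp, a phosphofructokinase, had 253, 319, 316, 334 and 431 normalized counts in 4-week PZ libraries, against 991, 915, 912, 673 and 756 in 1-week PZ libraries (log2 fold change -1.37 ± 0.24 (SE), adjusted p = 0.000204). In the rat PZ, Pfkp was called higher at 4 weeks. Hk2, a hexokinase, was at 571 to 965 at 4 weeks and 1039 to 1791 at 1 week (log2 fold change -0.90 ± 0.23 (SE), adjusted p = 0.00933). Vegfa, which draws vessels toward the growth plate, had 996, 1073, 774, 915 and 1353 normalized counts in 4-week PZ libraries, against 3147, 3320.4, 2770, 2142 and 1163 in 1-week PZ libraries (log2 fold change -1.23 ± 0.22 (SE), adjusted p = 0.000383), with the lowest 1-week library, replicate 5, inside the 4-week range. Car9, a carbonic anhydrase induced by low oxygen, was at 3.05 to 32.0 at 4 weeks and 84.1 to 285 at 1 week (log2 fold change -3.70 ± 0.89 (SE), adjusted p = 0.00658). Of 13 genes of DNA methylation and Polycomb, the methyltransferase gene Dnmt1 (log2 fold change -0.63 ± 0.16 (SE), adjusted p = 0.00865) and the demethylating enzyme genes Tet2 (log2 fold change -0.44 ± 0.11 (SE), adjusted p = 0.00671) and Tet3 (log2 fold change -0.45 ± 0.12 (SE), adjusted p = 0.0113) were lower, each without overlap and by less than 2-fold.

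Blood and vessel markers were higher in value in the 4-week libraries. Over all tested genes, 5.19% were higher and 3.39% lower. Of 15 B lymphocyte markers 5 were higher and 1 lower, with a median of 2.26. Cd22 was at 19.3 to 177 at 4 weeks and 0 to 10.5 at 1 week (log2 fold change 4.08 ± 1.00 (SE), adjusted p = 0.00708), and Fcmr, the receptor for IgM, at 5.59 to 74.9 at 4 weeks and 0 to 1.83 at 1 week (log2 fold change 4.25 ± 0.89 (SE), adjusted p = 0.00159). Ebf1, a B cell factor that mesenchymal cells express too, was the one that fell, at 214 to 446 at 4 weeks and 481 to 827 at 1 week (log2 fold change -0.99 ± 0.21 (SE), adjusted p = 0.0015). The summed level of the 15 markers was 504.57 to 1836.5 at 4 weeks and 648.41 to 1008.7 at 1 week, and none was at 0 in all libraries of an age. Ebf1 made up most of that sum at 1 week, and the mean log2 level of the markers, in which each gene counts equally, was 5.49 ± 0.82 at 4 weeks and 3.27 ± 0.88 at 1 week (SD, n = 5 each). Of 15 markers of macrophages and antigen presentation 3 were higher. Cd74, the invariant chain of class II molecules, had 304, 226, 359, 205 and 205 normalized counts in 4-week PZ libraries, against 20.5, 18.9, 34.7, 9.96 and 34.4 in 1-week PZ libraries (log2 fold change 3.49 ± 0.44 (SE), adjusted p = 1.46e-06). Ptprc, the leukocyte antigen CD45, was at 139.9 to 521 at 4 weeks and 12.6 to 122 at 1 week (log2 fold change 2.25 ± 0.48 (SE), adjusted p = 0.00246), and Lyz2 at 429 to 1621 at 4 weeks and 134 to 491 at 1 week (log2 fold change 1.47 ± 0.40 (SE), adjusted p = 0.0199; adjusted p = 0.0699 without replicate 1 of the 4-week libraries). The ages did not overlap for Cd22, Fcmr, Cd74 and Ptprc, and did for Lyz2. Of 12 neutrophil markers none passed, with a median of 1.73 and sums of 1720 to 6519 at 4 weeks and 305 to 3053 at 1 week. Of 10 endothelial markers Pecam1 (log2 fold change 1.99 ± 0.49 (SE), adjusted p = 0.00951) and Tie1 (log2 fold change 2.18 ± 0.68 (SE), adjusted p = 0.0418; adjusted p = 0.181 without replicate 1 of the 1-week libraries) were higher, but neither passed with voom (adjusted p = 0.115 for Pecam1 and 0.215 for Tie1) and both had negative values with the HZ marker score as a covariate (-0.43 and -0.32, adjusted p = 0.888 and 0.976). The endothelial markers had sums of 470.0 to 1432 at 4 weeks and 246 to 944 at 1 week. Muscle markers ran the other way in value, with a median of -2.48 over 12 genes of which none passed, and sums of 2035 to 6796 at 4 weeks and 1119 to 18423 at 1 week. The part of marrow, vessel or muscle cells in other results was not tested. With scores of B lymphocyte and neutrophil markers as covariates, 236 genes were called higher and 130 lower.

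The difference from the HZ was tested directly, as the age difference in the PZ minus that in the HZ. For 372 genes (2.45%) it passed at an adjusted p under 0.05, with 244 (1.6%) positive and 128 (0.841%) negative. The count was 602 with age and replicate number as a random block in the 20 tibia libraries and 198 with the HZ marker score as a covariate. Of the 441 genes called higher in the PZ, 76 differed from the HZ and all 76 had the larger increase in the PZ. Of the 217 called lower, 41 differed, and in 40 the PZ fell further, the exception being Smad9 (log2 fold change -1.20 in the PZ and -2.73 ± 0.27 in the HZ, difference 1.53 ± 0.38, adjusted p = 0.0188). These genes were chosen for their change in the same PZ libraries, which largely fixes the direction of the difference, so the counts are a description. Alpl rose by 3.91 ± 0.18 in the PZ and 0.83 ± 0.18 in the HZ (difference 3.08 ± 0.26, adjusted p = 7.75e-09), so that its PZ level reached 54.2% of the HZ level at 4 weeks, against 6.54% at 1 week. Bmp8a (4.41 ± 0.33 in the PZ, 1.53 ± 0.33 in the HZ, difference 2.87 ± 0.47, adjusted p = 0.000342) also rose further in the PZ. The citrate transporter gene Slc13a5 rose in the PZ and had a negative fold change in the HZ (1.50 ± 0.18 in the PZ, -0.88 ± 0.18 in the HZ, difference 2.38 ± 0.25, adjusted p = 6.56e-07). Slc13a5 had 8334, 5898, 6594, 7521 and 5993 normalized counts in 4-week PZ libraries, against 1972, 3439, 1994, 2436 and 2469 in 1-week PZ libraries. Hhip (2.12 ± 0.29, 0.10 ± 0.29, difference 2.02 ± 0.42, adjusted p = 0.00462) and Pth1r (1.26 ± 0.23, -0.36 ± 0.23, difference 1.62 ± 0.32, adjusted p = 0.00474) rose in the PZ and did not pass the test in the HZ.

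Other genes among the smallest p for a positive difference were lower at 4 weeks in the HZ. The mechanically gated channel gene Piezo1 had log2 fold changes of -0.14 ± 0.12 in the PZ and -1.46 ± 0.12 in the HZ (difference 1.32 ± 0.17, adjusted p = 1.75e-05), and the kinesin gene Kif13b had 0.41 ± 0.18 and -1.52 ± 0.18 (difference 1.94 ± 0.26, adjusted p = 2.35e-05), and neither passed in the PZ. Wnk4, a kinase that controls ion transport, rose in the PZ (1.43 ± 0.22) and was lower in value in the HZ (-0.97 ± 0.22, difference 2.40 ± 0.31, adjusted p = 2.35e-05). Among negative differences, Bcl2, an inhibitor of cell death, had 317, 502, 509, 426 and 300.4 normalized counts in 4-week PZ libraries, against 1337, 1044, 1231, 1174 and 1436 in 1-week PZ libraries (log2 fold change -1.62 ± 0.19 (SE), adjusted p = 2.21e-07; 0.57 ± 0.19 in the HZ, difference -2.20 ± 0.26, adjusted p = 5.18e-06). The zinc finger gene Zfp462 had 1390.1, 1822, 1269.9, 1316 and 1333 normalized counts in 4-week PZ libraries, against 3334, 2885, 3446, 3252 and 2834 in 1-week PZ libraries (log2 fold change -1.15 ± 0.15 (SE), adjusted p = 2.3e-06; difference -1.48 ± 0.21, adjusted p = 7.87e-05), and the lysosomal protease gene Ctsz had 1456, 1544, 1332, 1424 and 1378 normalized counts in 4-week PZ libraries, against 4102, 4011, 3859.7, 3132 and 3044 in 1-week PZ libraries (log2 fold change -1.34 ± 0.19 (SE), adjusted p = 1.24e-05; difference -1.68 ± 0.27, adjusted p = 0.000316). In these 3 genes every 4-week PZ library lay below every 1-week PZ library. Creg2 (-5.71 ± 1.01, adjusted p = 0.000934), at 1.09 to 10.2 normalized counts at 4 weeks and 6.64 to 75.6 at 1 week, did not pass in the PZ itself. Atp12a was at 0 in all 10 PZ libraries, so its difference (-6.12 ± 1.02, adjusted p = 0.000416) lay in the HZ libraries. Dlk1 was already low in the HZ at 1 week, at a mean of 6.18 normalized counts against 185 in the PZ, and its difference was -6.21 ± 1.19, adjusted p = 0.00238. Igf2 and H19 fell in both zones (-4.89 ± 0.47 and -3.84 ± 0.52 in the HZ), and their differences between zones did not pass.

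**Figure D5:**
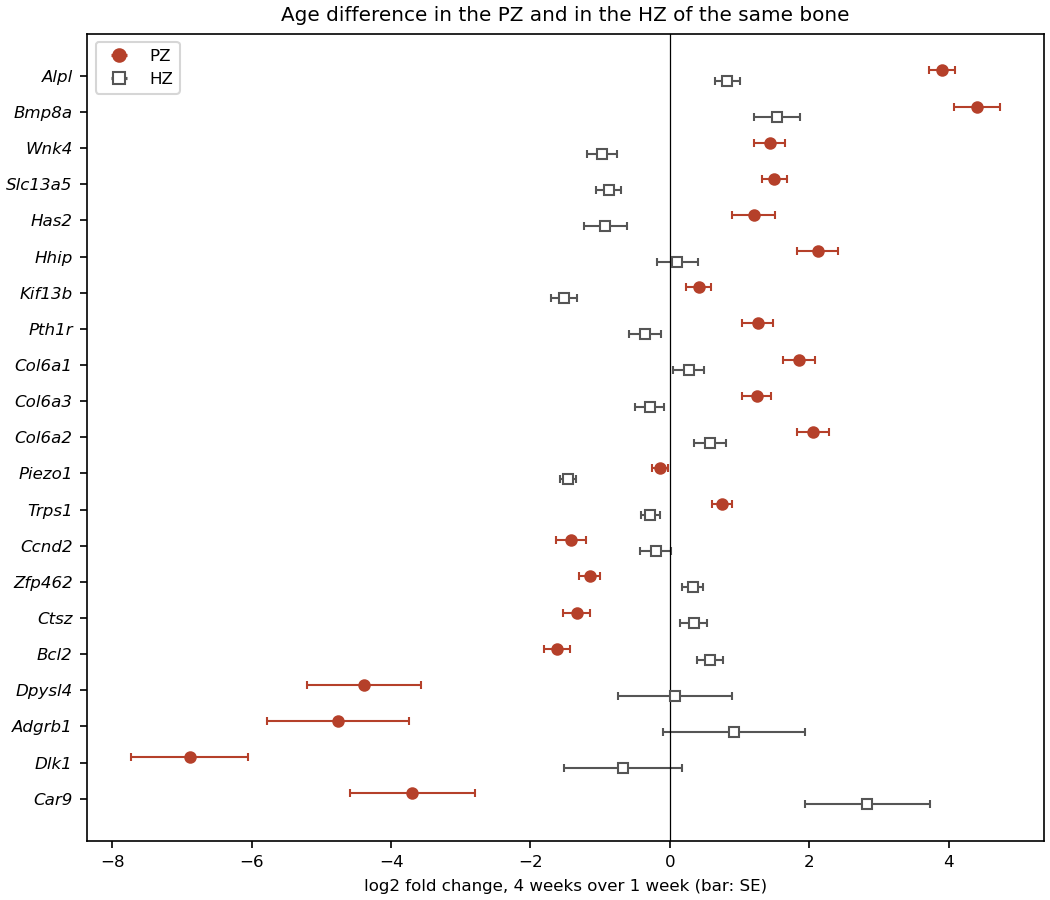
Log2 fold changes (4 weeks over 1 week) with SE for 21 genes whose age difference differed between zones, in the PZ (filled circles) and in the HZ (open squares). Alpl and Bmp8a rose by 3.91 and 4.41 in the PZ against 0.83 and 1.53 in the HZ, and Dlk1 and Bcl2 were at -6.89 and -1.62 in the PZ against -0.68 and 0.57 in the HZ.

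The levels of the zones at one age put these changes beside the step between zones. Of the genes called higher at 4 weeks, 149 of 441 (33.8%) had a higher mean in the 4-week PZ than in the 4-week HZ, and 75 (17.0%) had a higher mean in the 1-week PZ than in the 1-week HZ, against 48.7% and 48.6% of all tested genes. Of the genes called lower at 4 weeks, 91 of 217 (41.9%) were above the HZ at 4 weeks and 138 (63.6%) at 1 week. These comparisons share the PZ libraries with the calls, so the shares are a description.

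In the rat tibia PZ, fitted in the same way, 10363 genes could be matched by symbol and tested in both species. Of these, 5.69% were higher and 2.94% lower in the rat at 4 weeks by the same rule. Among the 333 mouse genes called higher and tested in the rat, 125 were called higher there too (37.5% of the mouse genes and 21.2% of the 590 rat genes), and 4 were called lower, Ano1, Cadps, Camk4 and Mrgprf. Among the 140 mouse genes called lower, 44 were called lower in the rat (31.4% of the mouse genes and 14.4% of the 305 rat genes), and Pfkp and Rassf9 were called higher. The sign was shared by 279 of the 333 and 112 of the 140. Igf2 (-6.18 ± 0.37, adjusted p = 7.59e-12), H19 (-2.85 ± 0.20, adjusted p = 3.66e-12), Dlk1 (-5.29 ± 0.65, adjusted p = 5.22e-07), Gpc3 (-2.31 ± 0.32, adjusted p = 3.52e-06) and Plag1 (-3.65 ± 0.35, adjusted p = 3.24e-09) fell in the rat, each given as log2 fold change ± SE. Alpl (3.07 ± 0.27, adjusted p = 1.93e-09), Sparc (1.27 ± 0.17, adjusted p = 1.84e-06), Chrdl1 (2.98 ± 0.32, adjusted p = 6.65e-08), Slc13a5 (1.93 ± 0.22, adjusted p = 7.91e-08) and Cd74 (4.67 ± 0.73, adjusted p = 3.18e-05) rose. Chad rose too (1.75 ± 0.24, adjusted p = 2.78e-06). Hhip (0.64 ± 0.42, adjusted p = 0.337), Frzb (-0.32 ± 0.27, adjusted p = 0.466), Tgfb3 (-0.09 ± 0.34, adjusted p = 0.905) and Bcl2 (0.12 ± 0.24, adjusted p = 0.801) did not pass there, and the difference between species was not tested.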

How the data were processed

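RNA of 5 mice per age was amplified with the Ovation RNA-Seq System V2 and made into Nextera XT libraries, read as 50 bp pairs on a HiSeq. Per the study's methods and the submitters' processing notes, STAR 2.4.2 was the aligner (mm10 for mouse, rn6 for rat), featureCounts 1.4.6 gave reads per gene and DESeq2 gave the RLE scaling. The tables deposited by the authors hold log2(normalized count + 1). The annotation release, the strand setting and any filter on low counts are not given in the sources used here. The design had been written for a linear scale; the deposited log2 values went into the fits unchanged and were returned to normalized counts for printing. Whole reads were recovered from the spacing of low values in each library (in every library, 100% of those up to 200 reads came out whole at a tolerance of 0.05). Left out were 26 mouse and 27 rat rows whose names had become dates and 216 second entries of rat symbols.

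Genes entered the test with 10 or more normalized counts in 5 or more mouse libraries. One linear model of the 6 mouse groups (29 libraries) was fitted with limma 3.58.1 in R 4.3.3 (trend and robust empirical Bayes, statmod 1.5.0, data.table, version 1.17.8), so that all groups share 1 estimate of the spread, and p-values were adjusted by Benjamini-Hochberg over all tested genes. Tables and figures used Python 3.11.15, pandas 2.3.3, numpy 2.4.6 and matplotlib 3.10.9. On simulated data of this comparison (14948 genes, 50 changed per fold), 14%, 70%, 66% and 80% of genes changed 2-, 3-, 4- and 8-fold were called. There were 0 calls in the wrong direction and 5 unchanged genes called. A call also needed an estimated change above 2-fold. Genes simulated at 2-fold had a median absolute log2 fold change of 0.946, so the 14% partly reflects that cut, and the rule often misses changes near 2-fold. Each simulated gene had 1 spread in all 6 groups and 1 mean in the unchanged groups, which the real groups need not share. Amplification and PCR without molecular identifiers make reads no independent molecules.

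The members and the 55 gene lists were chosen with earlier results of these data known, and list counts are descriptions. Named genes are the 10 largest changes per direction among called genes without overlap and with a higher mean of at least 100, up to 4 members of a described list with the smallest adjusted p or every member where 5 or fewer passed, the genes the study's text names, and the 5 smallest adjusted p per direction of the difference between zones. A few genes that this rule names are not reported here. Others are said to be chosen after their values were seen. A leave-one-out value in brackets is the highest adjusted p over the 10 fits without 1 library, given where a call was lost. Gene symbols were found in RefSeq on GRCm38.p6 for 15165 of 15213 genes. Alternatives were other pseudocounts, filters, normalizations, library weights, voom on recovered reads, fewer libraries, a replicate block and marker scores as covariates.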

Additional observations from a re-analysis of the deposited data

Results flagged for a closer look

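A single library stood far from the other 4 of its group in 17 of 346 groups of named genes, by the gap to its nearest neighbour over the range of the group, and chance alone gives this in about 1 in 20 groups. Among 4-week libraries, replicate 2 was lowest for Vit (990.2) and Atp5f1 (424), and highest for Glb1 (381), Zfp462 (1822) and Tbx5 (0.999). Replicate 1 was lowest for Ccnd1 (1697), replicate 4 lowest for Ccnd2 (277), and replicate 5 highest for Hoxd13 (5.09). Among 1-week libraries, replicate 4 was highest for R3hdml (8.85) and Tbx5 (4.43) and lowest for Per1 (240.2) and Fkbp5 (119.5 normalized counts). Replicate 5 was lowest for Igf2 (183120) and highest for Atp5j (588), replicate 2 lowest for Igfbp5 (14.4), replicate 1 highest for Pthlh (19.5) and replicate 3 highest for Fcmr (1.83). All of these are normalized counts.

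The age difference in the PZ differed from that in the HZ, by the test of the difference in limma, for 35 named genes. The differences (PZ minus HZ, log2) were positive for Oxct2a (4.55), Lipg (4.13), Alpl (3.08), Bmp8a (2.87), Wnk4 (2.40), Slc13a5 (2.38), Has2 (2.12), Hhip (2.02), Kif13b (1.94), Pth1r (1.62), Col6a1 (1.59), Col6a3 (1.53), Smad9 (1.53), Col6a2 (1.47), Tgfb3 (1.36), Piezo1 (1.32), Mef2c (1.05), Trps1 (1.03), Stat5b (1.03) and Gpc1 (0.77). They were negative for Car9 (-6.53), Dlk1 (-6.21), Atp12a (-6.12), Creg2 (-5.71), Adgrb1 (-5.67), Aire (-5.00), Dpysl4 (-4.46), Itgb8 (-3.73), Bcl2 (-2.20), Adamts9 (-1.88), Ctsz (-1.68), Zfp462 (-1.48), Ebf1 (-1.46), Ccnd2 (-1.22) and Vegfa (-1.12). Adjusted p ranged from 7.75e-09 for Alpl to 0.0467 for Vegfa.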

How the results depend on the processing

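Counts of called genes (658 in all, 441 higher and 217 lower) stayed within 1.5 times under a pseudocount of 4 (682), no filter (708), a filter on the 10 libraries (630), quantile normalization (757) and RLE recomputed over the 10 libraries without Rn45s (654). They moved with only the 10 PZ libraries (1310, with 801 higher and 509 lower), array weights (1575, with 1035 and 540), the HZ marker score (125, with 68 and 57) and the scores of B lymphocyte and neutrophil markers (366, with 236 and 130), and the lower calls moved with voom on recovered reads (797, with 451 higher and 346 lower). The share of higher calls was 67.0%, and 57.3% under quantile normalization (434 higher, 323 lower), 56.6% with voom and 54.4% with the HZ score. Leaving out 1 library gave 472 to 710 in all, 316 to 498 higher, 156 to 217 lower and 259 to 338 for the difference between zones, which was 372. That difference gave 198 with the HZ score, and 258 to 496 under the other alternatives except the random block below. Genes called in both species (169, of which 44 lower) numbered 336 with array weights (249 higher, 87 lower) and 259 with only the PZ libraries (86 lower). Of 147 named genes past the threshold, 133 to 147 stayed past it under the alternatives without a score or a left-out library (143 of 143 under the filter that leaves 4 of them untested), 96 with the marrow scores, 34 with the HZ score and 119 to 141 with 1 library left out. The 14 calls lost with voom were those of Adamts2, Adamts5, Bmp6, Chst3, Fosb, Glb1, Ibsp, Lyz2, Nr4a1, Pdk4, Pecam1, Sgk1, Tie1 and Wif1. The 5 lost with only the 10 PZ libraries were those of Adamts2, Glb1, Ibsp, Tie1 and Wif1. With the replicate block in these libraries, the 8 lost were those of Adamts2, Bglap, Bglap2, Col5a1, Ibsp, Tie1, Vegfa and Wif1. Pecam1 (-0.43) and Tie1 (-0.32) reversed with the HZ score. The cause of these changes was not tested, beyond the number of libraries or genes that an alternative itself changes.

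The replicate number was taken as a block in the 10 PZ libraries, which gave 1270 calls (782 higher, 488 lower), and 464 for the difference between zones in the 20 tibia libraries (496 without it). Same-numbered 4-week and 1-week libraries are different animals and did not deviate together (correlation of deviations -0.13 to 0.03), so they share only a number. Within an age, the HZ library closest to each PZ library by this correlation bore the same number in 10 of 10 cases (0.03 to 0.16), a hint from the data and not the design. Age and number as a random block, added after seeing the data, gave 602 for the difference between zones. Depth limits genes near 0, such as Pthlh and Igfbp6, where a few reads decide a call.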

Other observations

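Lists of circadian clock genes and of genes induced by glucocorticoids were written after some of their values had been seen, so their counts are descriptions, and all of these genes were named after their values were seen. Of 13 glucocorticoid response genes tested, 8 were higher at 4 weeks (against 5.19% of all genes), 0 were lower and the median log2 fold change was 1.40. Tsc22d3, the glucocorticoid-induced leucine zipper, had 798, 790.4, 1080.5, 956 and 837 normalized counts in 4-week PZ libraries, against 147, 218, 182, 237 and 209 in 1-week PZ libraries (log2 fold change 2.17 ± 0.26 (SE), adjusted p = 5.85e-07 by limma). Zbtb16, a zinc finger gene, had 267, 175, 202, 689.7 and 714 normalized counts in 4-week PZ libraries, against 16.2, 21.6, 53.9, 19.9 and 63.6 in 1-week PZ libraries (log2 fold change 3.46 ± 0.53 (SE), adjusted p = 3.33e-05). Fkbp5, which encodes a chaperone partner of the glucocorticoid receptor, had 601, 489.6, 433, 780.2 and 712 normalized counts in 4-week PZ libraries, against 206, 204, 180.1, 119.5 and 188 in 1-week PZ libraries (log2 fold change 1.73 ± 0.33 (SE), adjusted p = 0.000481). The ages did not overlap in any of the 3 genes, and 4-week replicates 4 and 5 were the highest for Zbtb16 and Fkbp5. Klf9 (log2 fold change 1.40 ± 0.26 (SE), adjusted p = 0.000374) was higher without overlap, and Sgk1 (log2 fold change 1.03 ± 0.26 (SE), adjusted p = 0.00914) and Pdk4 (log2 fold change 1.50 ± 0.39 (SE), adjusted p = 0.0118) were higher with overlap.

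Of 19 clock genes, 5 were higher and 2 lower (against 5.19% and 3.39% of all genes), with a median of 0.01. Per1, a repressor of the clock that glucocorticoids also induce and that stands on both lists, had 1039, 1270.5, 1062, 1504 and 1364 normalized counts in 4-week PZ libraries, against 341, 375, 349, 240.2 and 384 in 1-week PZ libraries (log2 fold change 1.89 ± 0.25 (SE), adjusted p = 2.27e-06). Nr1d1, the nuclear receptor Rev-erb alpha, had 1967, 1810.5, 2430.1, 2518 and 1968 normalized counts in 4-week PZ libraries, against 339, 414, 418, 249 and 921 in 1-week PZ libraries (log2 fold change 2.32 ± 0.52 (SE), adjusted p = 0.00476). Nr1d2 was at 787 to 1006 at 4 weeks and 199.9 to 404 at 1 week (log2 fold change 1.72 ± 0.26 (SE), adjusted p = 2.45e-05). No library of these 3 genes crossed to the range of the other age. Dbp (log2 fold change 2.74 ± 0.89 (SE), adjusted p = 0.0489; adjusted p = 0.156 without replicate 1 of the 1-week libraries) and Tef (log2 fold change 0.91 ± 0.29 (SE), adjusted p = 0.0405; adjusted p = 0.109 without replicate 2 of the 1-week libraries), outputs of the clock, were higher, and the repressor gene Cry1 was lower at 51.4 to 90.1 at 4 weeks and 152 to 238 at 1 week (log2 fold change -1.44 ± 0.29 (SE), adjusted p = 0.00118). In the rat PZ, Per1 (1.68 ± 0.30, adjusted p = 0.000142) and Nr1d1 (1.70 ± 0.45, adjusted p = 0.00757) were also higher, and Cry1 did not pass (0.12 ± 0.25, adjusted p = 0.809), as log2 fold change with SE. The time of day at which animals of each age were collected was not found in the sources used here, so its part in these values was not tested.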
